A study of Mus musculus with 27 samples.

Results

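The response of ΔHD2/fl mammary tumour cell lines to TGFβ was measured in 4 RNA-sequencing libraries of a series of 27. Both lines came from tumours of a thoracic mammary gland of MMTV-PyMT mice on the FVB/N background, in which the mouse mammary tumour virus promoter drives the polyoma middle T oncogene in mammary epithelium. Both carried a Bcl9/Bcl9L allele without the HD2 domain, through which these coactivators bind β-catenin, together with a floxed wild-type allele that had not been recombined, so a wild-type copy was present in all 4 libraries. Line 1 and line 2 were derived from different mice of this genotype and are the 2 biological replicates. Each line received growth medium alone or TGFβ at 2 ng/ml for 4 days, and the libraries were compared within each line. The 4 libraries were chosen by genotype and treatment labels, not by measured values. The rest of the series held Wnt3a treatments and lines of 3 other genotypes, with 12 groups in all. Values are assigned reads scaled to a total of 1000000 per library (CPM), and the 4 libraries held 23.2 to 28.2 M reads against 21.9 to 33.7 M in the series, where M is 1000000 reads. A count of 0 allows up to 3 reads, or 0.107 to 0.129 CPM in these libraries, and this limit covers counting error alone.

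TGFβ binds a complex of type II and type I receptor kinases, which phosphorylates Smad2 and Smad3. These join Smad4 and act on target genes that include the inhibitory Smad7. In mammary epithelium TGFβ is known as an inducer of epithelial-mesenchymal transition (EMT), in which transcription factors of the Snai, Zeb and Twist families repress junction genes while matrix and integrin genes rise, and as an inhibitor of cell division.

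Epithelial markers were expressed in all 4 libraries. Cdh1, the adhesion protein E-cadherin, stood at 1053 and 1145 CPM without cytokine and 703 and 888 CPM with TGFβ in line 1 and line 2, respectively. Pairs of values below are always given in this order of lines. The 6 epithelial markers summed to 10785 and 19528 CPM without cytokine and 6163 and 6085 CPM with TGFβ. Of the fibroblast markers, 9 in all, Lum was at 0 in the 4 libraries, and their sum was 47.2 and 5.29 CPM without cytokine and 94.8 and 60.0 CPM with TGFβ. The leukocyte markers Ptprc, Adgre1 and Cd52 were at 0 in the 4 libraries, as were Emcn and Tie1 of the endothelial markers and Adipoq, Plin1, Lep and Retn of the adipocyte markers. Bcl9 stood at 35.3 and 55.2 CPM without cytokine and 32.4 and 42.5 CPM with TGFβ, and Bcl9l at 209 and 255 CPM without cytokine and 144 and 182 CPM with TGFβ. The fitted log2 change was -0.25 ± 0.24 (SE, adjusted p = 0.526) for Bcl9 and -0.51 ± 0.18 (SE, adjusted p = 0.0898) for Bcl9l. Both were lower with TGFβ in both lines by less than 1 log2 unit, and neither passed the test. CPM values per gene do not separate the ΔHD2 from the wild-type allele.

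Genes were called changed where log2(CPM + 1) moved by 1 or more either way and the adjusted p did not exceed 0.05, in a limma fit with cell line as a block. Of 13270 tested genes, 695 were called (5.24%), with 239 higher (1.8%) and 456 lower (3.44%) after TGFβ. The genes that rose most coded for secreted and matrix proteins, a protease, a diacylglycerol kinase and a cadherin, while those that fell most included 3 keratins, a secreted protease inhibitor and an aldehyde dehydrogenase. The median change over all tested genes was -0.17, with -0.20 in line 1 and -0.13 in line 2, and the 10 most abundant genes took 5.96 and 6.28% of reads without cytokine and 10.4 and 9.24% with TGFβ. Fn1 alone went from 0.707 and 0.337% of reads to 3.68 and 2.43%. Under median-of-ratios scaling, which sets that median to -0.00, 650 genes were called (4.9%), of which 360 (2.71%) were higher and 290 (2.19%) lower. So 34.4% of calls were higher with library totals and 55.4% with median-of-ratios scaling, and no gene called under both changed its sign (529 genes, 239 higher and 290 lower). Without the block, which lets the difference between the lines enter the error, 38 genes were called (0.286%), 11 higher (0.0829%) and 27 lower (0.203%), and all 38 were among the 695. In bulk RNA, fewer cells of a kind and less RNA per cell cannot be told apart.

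The lines were then set side by side. Without a test, 286 genes were higher (2.16%) and 581 lower (4.38%) by at least 1 log2 unit in both lines, and 13 genes moved by at least 1 in opposite directions (0.098%). With median-of-ratios scaling 410 were higher and 452 lower. By any amount, 22.0% of tested genes were higher in both lines and 52.6% lower in both, shares against which the counts of list members below can be read. Line 1 had 1501 genes that moved by at least 1, of which 57.8% moved the same way in line 2, and line 2 had 1993, of which 43.5% did so in line 1. Over the 13270 genes the changes in the lines had a Pearson correlation of 0.727, as a description of genes that share the same 2 pairs of libraries. No called gene had opposite signs in the lines. Of the 695, 514 moved by at least 1 in both lines (170 higher, 344 lower), and 181 passed on a mean of 1 while moving by less in one of the lines.

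**Figure D1:**
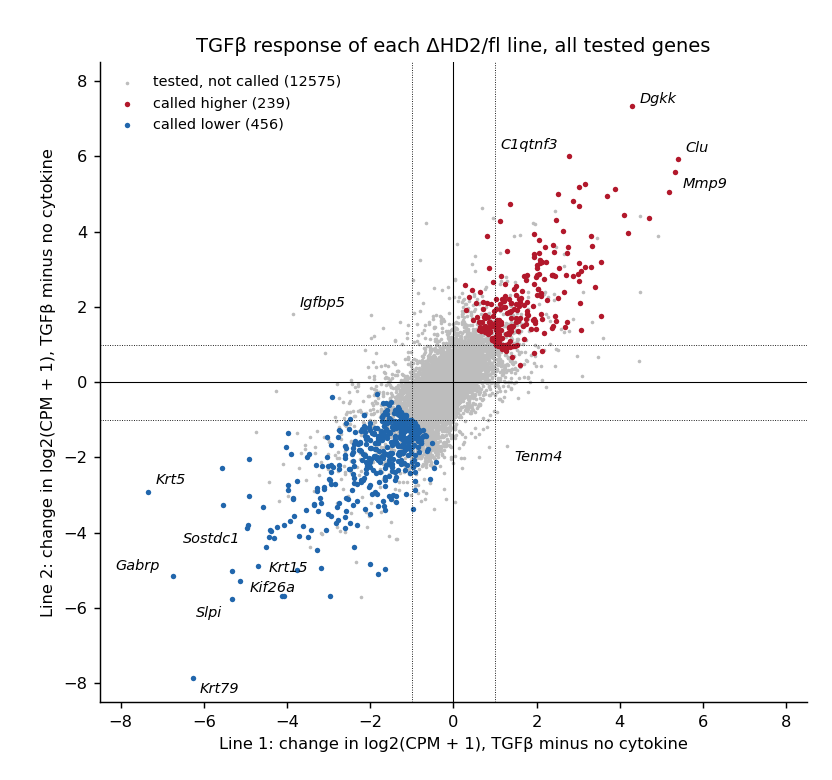
Change in log2(CPM + 1) after TGFβ in line 1 (x axis) and line 2 (y axis) for each of 13270 tested genes, where grey points were not called, red were called higher (239) and blue called lower (456), and dotted lines mark a change of 1. Most called genes lie along the diagonal, with Dgkk, Clu and Mmp9 at the top right, Krt79 at the bottom left, and Igfbp5 and Tenm4 among the few in the opposite quadrants.

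Leaving out a line reduced the calls. Without line 1, 162 genes were called, and 127 of the 695 were among them. Without line 2, 78 genes were called, including 65 of the 695, and 37 were called in both cases. In these fits the response rests on a single line, whose spread is assumed to be that of the other lines of the series. The lines themselves differed at least 2-fold in 1290 genes without cytokine and in 1854 with TGFβ.

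By fitted change, Dgkk, a diacylglycerol kinase, rose most among genes with a mean of at least 10 CPM in a group. The gene lies on chromosome X, 6779306 to 6948363 (GRCm38). It stood at 53.1 and 18.9 CPM without cytokine and 1063 and 3197 CPM with TGFβ, a fitted change of 5.81 ± 1.17 (SE, adjusted p = 0.0103). Clu, the secreted chaperone clusterin (chromosome 14, 65968483 to 65981548), stood at 282 and 156 CPM without cytokine and 12026 and 9532 CPM with TGFβ, with a change of 5.67 ± 0.56 (SE, adjusted p = 0.000217), and its calls held without line 1 (adjusted p = 0.00985) and without line 2 (adjusted p = 0.0245). Mmp9, a gelatinase that cleaves basement membrane collagen, was low before treatment, at 0.0431 and 0.777 CPM without cytokine and 40.9 and 84.7 CPM with TGFβ. Its fitted change was 5.46 ± 1.40 (SE, adjusted p = 0.0302). Untreated line 1 held 1 read of Mmp9, under the 3-read limit, so the size of that change depends on the pseudocount.

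Other risers in this set were Olfm2, a secreted olfactomedin (5.13), the scaffold gene Whrn (4.53), the adhesion receptor gene Adgra1 (4.52), the secreted C1qtnf3 (4.39), Nat8l, which makes N-acetylaspartate (4.28), the matricellular Ccn4 (4.21), Ctla2a (4.10) and the cadherin gene Cdh10 (4.09). Olfm2 went from 0.215 and 0.777 to 43.2 and 58.6 CPM, and Whrn from 8.10 and 7.18 to 234 and 167 CPM. C1qtnf3 rose unequally, from 0.345 and 0.481 to 8.24 and 94.4 CPM, with changes of 2.78 and 6.01. Untreated line 2 held 0 reads of Adgra1 and 2 of Cdh10, under the 3-read limit, so their changes also depend on the pseudocount. Ctla2a has the close copy Ctla2b, and reads that fit both were not kept, so its level is uncertain.

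Krt79, a type II keratin (chromosome 15, 101929332 to 101940324), fell most. It went from 164 and 489.7 to 1.13 and 1.10 CPM, a change of -7.07 ± 1.28 (SE, adjusted p = 0.00648). Gabrp, a GABA receptor subunit of secretory epithelia, went from 146 and 227 to 0.378 and 5.47 CPM (-5.94). Slpi, the secretory leukocyte protease inhibitor, went from 367 and 127 to 8.13 and 1.38 CPM (-5.54). The kinesin-like gene Kif26a had nearly equal values in the lines, 77.3 and 71.8 CPM without cytokine and 1.25 and 0.852 CPM with TGFβ. Aldh3a1, an aldehyde dehydrogenase, went from 1283 and 295 to 30.9 and 8.13 CPM. In all 5 the TGFβ libraries lay below both untreated libraries, as in 34.4% of all tested genes.

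Further fallers were Krt5 (-5.12), Trim29 (-4.90), the insulin-like growth factor binding protein gene Igfbp2 (-4.88), Krt15, Sostdc1, the brush-border glucosidase gene Mgam (-4.43) and Hey1, a Notch-induced repressor (-4.41). Krt15 stood at 24.9 and 29.9 CPM without cytokine and 0 and 0.0355 CPM with TGFβ. The TGFβ values come to 1 read in all and lie under the 3-read limit, so the fitted change of -4.80 is set by the pseudocount. Sostdc1, a secreted antagonist of BMP and Wnt ligands (chromosome 12, 36314169 to 36318452), stood at 21.9 and 109 CPM without cytokine and 0 and 4.33 CPM with TGFβ. Its changes were -4.51 and -4.37, with the smallest adjusted p of the 24 (2.42e-05 by limma). The SE comes from all lines of the series, and only 4 of the 27 libraries reached 1 CPM of Sostdc1, all ΔHD2/fl. The small adjusted p is therefore no support. Line 1 had no read of Sostdc1 with TGFβ, so its change is set by the pseudocount. The count models did not call the gene, with an adjusted p of 0.0586 by edgeR and 0.549 by DESeq2.

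Of these 24 genes, 19 were not called without line 1 and 21 not without line 2, where their adjusted p reached 0.27 and 0.487. All 24 were called under median-of-ratios scaling, 4 without the block, and 22 by edgeR. In 23 of the 24, with Krt5 the exception, the TGFβ libraries did not overlap the untreated ones. Among all tested genes this held for 12.8% upward and 34.4% downward, and the 24 were ranked by the same values, so nothing is read from it.

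**Figure D2:**
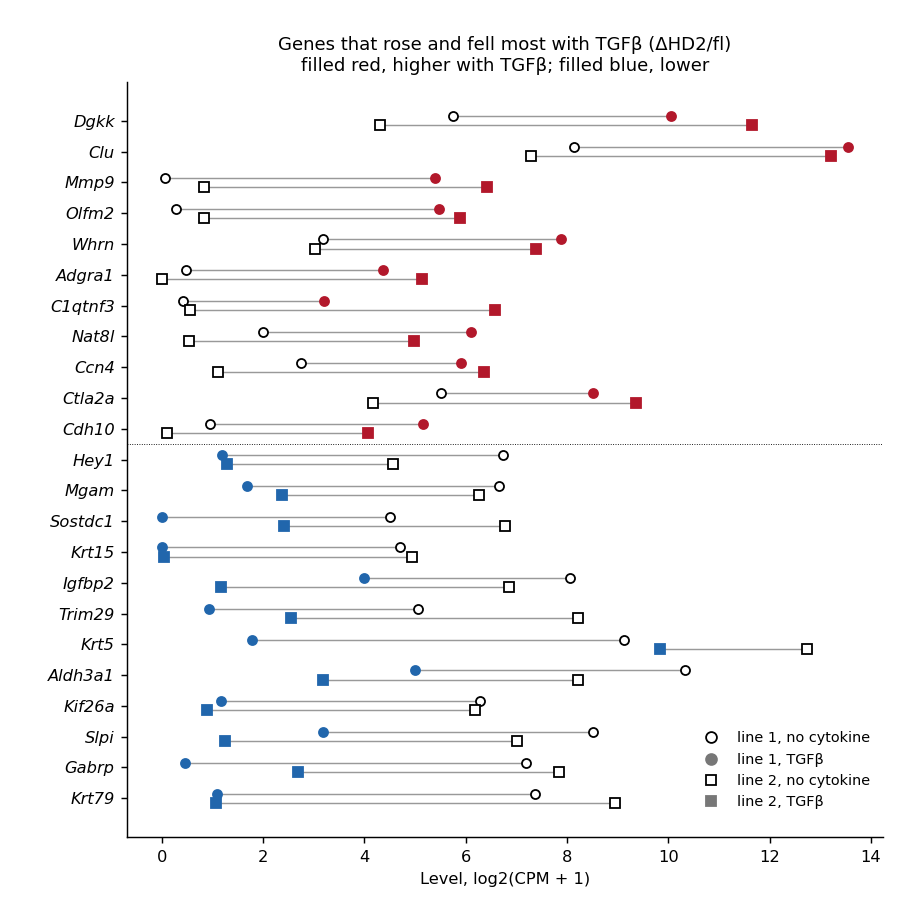
Level in log2(CPM + 1) (x axis) of 11 of the top 12 risers and the top 12 fallers in the ΔHD2/fl lines, with open symbols for no cytokine, filled symbols for TGFβ, circles for line 1 and squares for line 2. Grey bars join the libraries of a line, and the untreated Krt5 level of line 1 lies below the TGFβ level of line 2, the only overlap of the 24.

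The RefSeq promoter windows (build GRCm38.p6, 250 bases before to 50 after the start, on the gene's strand) were searched on both strands for the Smad sequence CAGACA, the AP-1 sequence TGANTCA and CACCTG, the E-box that Snail and Zeb repressors bind. Olfm2 and Krt79 are shown because each holds an E-box while the genes moved in opposite directions. Dgkk and Whrn hold none of the motifs in this window. In the sequences below the capitals mark CACCTG, whose first base lies 172 bases before the Olfm2 start at chr9:20746247-20746546 (minus strand) and 27 bases before the Krt79 start at chr15:101940275-101940574 (minus strand). The first of 3 Olfm2 entries is given.
Olfm2: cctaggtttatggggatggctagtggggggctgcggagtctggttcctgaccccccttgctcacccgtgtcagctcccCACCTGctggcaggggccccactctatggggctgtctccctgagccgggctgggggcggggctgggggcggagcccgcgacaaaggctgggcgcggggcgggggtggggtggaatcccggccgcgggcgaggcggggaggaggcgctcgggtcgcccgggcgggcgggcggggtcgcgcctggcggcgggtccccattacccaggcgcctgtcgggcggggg
Krt79: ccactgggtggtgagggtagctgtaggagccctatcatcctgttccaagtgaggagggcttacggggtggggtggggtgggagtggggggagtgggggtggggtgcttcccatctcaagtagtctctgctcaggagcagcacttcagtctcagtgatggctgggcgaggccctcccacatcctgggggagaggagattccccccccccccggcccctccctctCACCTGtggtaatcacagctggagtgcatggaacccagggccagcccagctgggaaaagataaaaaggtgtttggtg
Of all 32851 windows, 20.2% hold this E-box, 21.04% CAGACA and 7.81% TGANTCA. Among the first windows of 340 genes called lower, 170 called higher and 10461 tested, the E-box was in 18.2, 15.9 and 17.3%, CAGACA in 19.1, 17.6 and 15.9%, and TGANTCA in 7.65, 12.4 and 5.31%, respectively. No test was made, and a match is a description of the letters alone.

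Components of the TGFβ pathway moved both ways. Of 26 members, 3 rose (Ltbp2, Smad7 and Acvr1) and 2 fell (Acvr1b and Bambi), and their median change was 0.05 against -0.17 for all tested genes. Smad7, the inhibitory Smad, rose from 47.4 and 41.9 to 165 and 188 CPM, a change of 1.96 ± 0.22 (SE, adjusted p = 0.000468), and was called without line 1 and without line 2, the only one of the 5 in each case. Ltbp2, a matrix protein of the latent TGFβ binding family, went from 217 and 235 to 829 and 2386 CPM. The type I receptor gene Acvr1b fell from 52.8 and 88.3 to 15.3 and 29.8 CPM, and Bambi, a pseudoreceptor that dampens the pathway, from 7.24 and 14.9 to 1.51 and 6.82 CPM. Bambi lost its call by edgeR (adjusted p = 0.0872) and with median-of-ratios scaling (adjusted p = 0.06). Acvr1, a type I receptor of BMP signalling named after its values were seen, rose from 46.4 and 79.8 to 110.0 and 159.5 CPM.

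The ligand and main receptors did not pass the test. Tgfb1 stood at 8.10 and 19.1 CPM without cytokine and 9.22 and 14.1 CPM with TGFβ (-0.12 ± 0.36 (SE, adjusted p = 0.866)), Tgfbr1 at 62.9 and 40.8 CPM without cytokine and 53.1 and 52.4 CPM with TGFβ (0.06 ± 0.31 (SE, adjusted p = 0.935)), and Tgfbr2 at 263 and 161 CPM without cytokine and 109 and 149 CPM with TGFβ (-0.69 ± 0.40 (SE, adjusted p = 0.274)). Tgfbr2 was lower in line 1 (-1.27 and -0.11 in lines 1 and 2), and Smad3 changed by -0.32 ± 0.23 (SE, adjusted p = 0.382). For Tgfb1 and Tgfbr1 the direction differed between the lines.

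Known TGFβ target genes followed. Of 25, 7 were called higher and 0 lower, and edgeR also called 0 lower, with 9 higher. The median was 1.17, and 21 of the 25 were higher in both lines. Jag1, a Notch ligand, rose from 129 and 243 to 1049.9 and 1577 CPM (2.86 ± 0.36 (SE, adjusted p = 0.000877)), and Bhlhe40, a transcriptional repressor, from 58.6 and 82.8 to 341 and 393 CPM (2.38 ± 0.25 (SE, adjusted p = 0.000352)). Fn1, fibronectin, went from 7067 and 3370.5 to 36801 and 24299.9 CPM, and Itga5, the fibronectin receptor subunit, from 38.0 and 23.5 to 321 and 105 CPM. Cdkn2b, the p15 inhibitor of G1 kinases, went from 17.4 and 34.6 to 61.5 and 123 CPM. Ccn2, the connective tissue growth factor, stood at 357 and 503 CPM without cytokine and 1639 and 2652 CPM with TGFβ, with no overlap between the groups, but its change of 2.30 ± 0.82 (SE, adjusted p = 0.0885) missed the threshold, as did Skil (0.84 ± 0.39 (SE, adjusted p = 0.179)), a Smad corepressor. Without line 1, 4 of the 7 calls held, and without line 2, 3. The list is one of textbook targets chosen with earlier results of these data known.

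Id genes code for inhibitors of helix-loop-helix factors and respond to BMP signals. Id2 fell from 165 and 134 to 19.2 and 47.9 CPM (-2.25 ± 0.63 (SE, adjusted p = 0.0396)), and Id1, at 135 and 160.0 CPM without cytokine and 42.7 and 80.7 CPM with TGFβ, missed the threshold (-1.31 ± 0.42 (SE, adjusted p = 0.0648)). In the list of 20 Id and BMP pathway genes, 1 rose (Bmp1, the procollagen protease, from 176 and 225 to 604 and 829.9 CPM) and 2 fell (Id2 and the ligand Bmp7, from 7.33 and 66.0 to 0.907 and 16.7 CPM). The list's median was 0.02, and Id2 lost its call with median-of-ratios scaling (adjusted p = 0.062). None of these 3 calls held without either line, and edgeR called 1 of them.

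No EMT transcription factor was called, 0 of 13 by limma, with 4 at an unadjusted p under 0.05, 2 called by edgeR and 3 by DESeq2. Tead2, a TEAD factor named after its values were seen, had an adjusted p of 0.019 by limma with a change of 0.83, under the fold limit. Snai1 stood at 13.6 and 17.0 CPM without cytokine and 42.7 and 29.5 CPM with TGFβ (1.17 ± 0.36 (SE, adjusted p = 0.0563)) and Snai2 at 10.4 and 33.3 CPM without cytokine and 3.52 and 21.6 CPM with TGFβ (-0.97 ± 0.46 (SE, adjusted p = 0.186)). Snai1 was higher in both lines and Snai2 lower in both. Zeb1 was low, at 14.1 and 4.00 CPM without cytokine and 18.4 and 4.97 CPM with TGFβ (0.31), and Zeb2 stood at 3.49 and 0.592 CPM without cytokine and 9.22 and 4.58 CPM with TGFβ (adjusted p = 0.187). Hmga2, a chromatin protein named after its values were seen, went from 71.8 and 12.5 to 496 and 33.7 CPM (2.07 ± 0.65 (SE, adjusted p = 0.0593)). With median-of-ratios scaling 2 members were called higher, with Snai1 at an adjusted p of 0.0348.

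Part of the epithelial transcription and splicing factors fell. Of 18, 6 were called lower and 0 higher (0 by edgeR too), and 17 were lower in both lines, with a median of -1.24. The grainyhead-like factors, which maintain the epithelial barrier, went from 10.9 and 44.8 to 0.302 and 0.497 CPM for Grhl3 (-4.06 ± 0.88 (SE, adjusted p = 0.0146)) and from 30.6 and 51.2 to 3.14 and 3.48 CPM for Grhl1 (-3.24 ± 0.94 (SE, adjusted p = 0.0468)). Ehf, an epithelial Ets factor, went from 97.9 and 189.5 to 11.5 and 30.8 CPM, and Ovol1, a repressor of mesenchymal genes, from 11.6 and 24.2 to 1.51 and 1.81 CPM. Tfap2c and Klf5, named after their values were seen, went from 77.4 and 81.7 to 9.22 and 17.0 CPM and from 49.0 and 45.9 to 21.9 and 9.23 CPM. In each of the 6 both TGFβ values lay below both untreated values, as in 34.4% of all tested genes, and edgeR called 4 of the 6. Under median-of-ratios scaling 3 of the 6 were called, and none was called without line 1 or without line 2.

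Some junction genes were called lower. Of 34 tested, 3 fell and 0 rose (0 by edgeR too), with a median of -0.52, and 23 were lower in both lines. Of all tested genes 3.44% were called lower. With the compared lines alone, 9 junction genes were called lower and 0 higher. Cldn1, a tight junction claudin, went from 41.4 and 78.8 to 9.56 and 1.81 CPM (-3.42 ± 0.80 (SE, adjusted p = 0.0212)), the scaffold gene Tjp3 from 6.16 and 11.4 to 0.340 and 0.284 CPM (-2.85 ± 0.46 (SE, adjusted p = 0.00392)) and the desmosomal cadherin gene Dsc2 from 9.05 and 12.7 to 3.21 and 2.27 CPM (-1.66 ± 0.25 (SE, adjusted p = 0.00273)). Of the 3, edgeR called Tjp3 alone, with Cldn1 at an adjusted p of 0.0688 and Dsc2 at 0.153. Dsc2 was the 1 called without line 1 (adjusted p = 0.0178), and none without line 2. Cdh1, given above, changed by -0.47 ± 1.23 (SE, adjusted p = 0.845), and its SE, estimated over all lines of the series, was larger than the change. Epcam, an epithelial adhesion molecule, stood at 397 and 641 CPM without cytokine and 361 and 777 CPM with TGFβ (0.07).

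Of 20 mesenchymal and contractile genes, 1 rose and 0 fell (0 by edgeR too, which called 2 higher). This was Cdh11, osteoblast cadherin, at 0.345 and 0 CPM without cytokine and 1.25 and 2.31 CPM with TGFβ, a low level that was not called by edgeR or DESeq2 or without line 2 (adjusted p = 0.173). With the compared lines alone, 0 of the list were called higher and 1 lower. Cdh2, N-cadherin, went from 139 and 147 to 189 and 483 CPM (1.07 ± 0.52 (SE, adjusted p = 0.197)), and Vim, vimentin, from 395 and 187 to 1191 and 247 CPM (0.99 ± 0.66 (SE, adjusted p = 0.345)). Both were higher with TGFβ in both lines, with the larger part of the Vim change in line 1 and of the Cdh2 change in line 2. The list's median was 0.13, and 11 of 20 were higher in both lines.

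**Figure D3:**
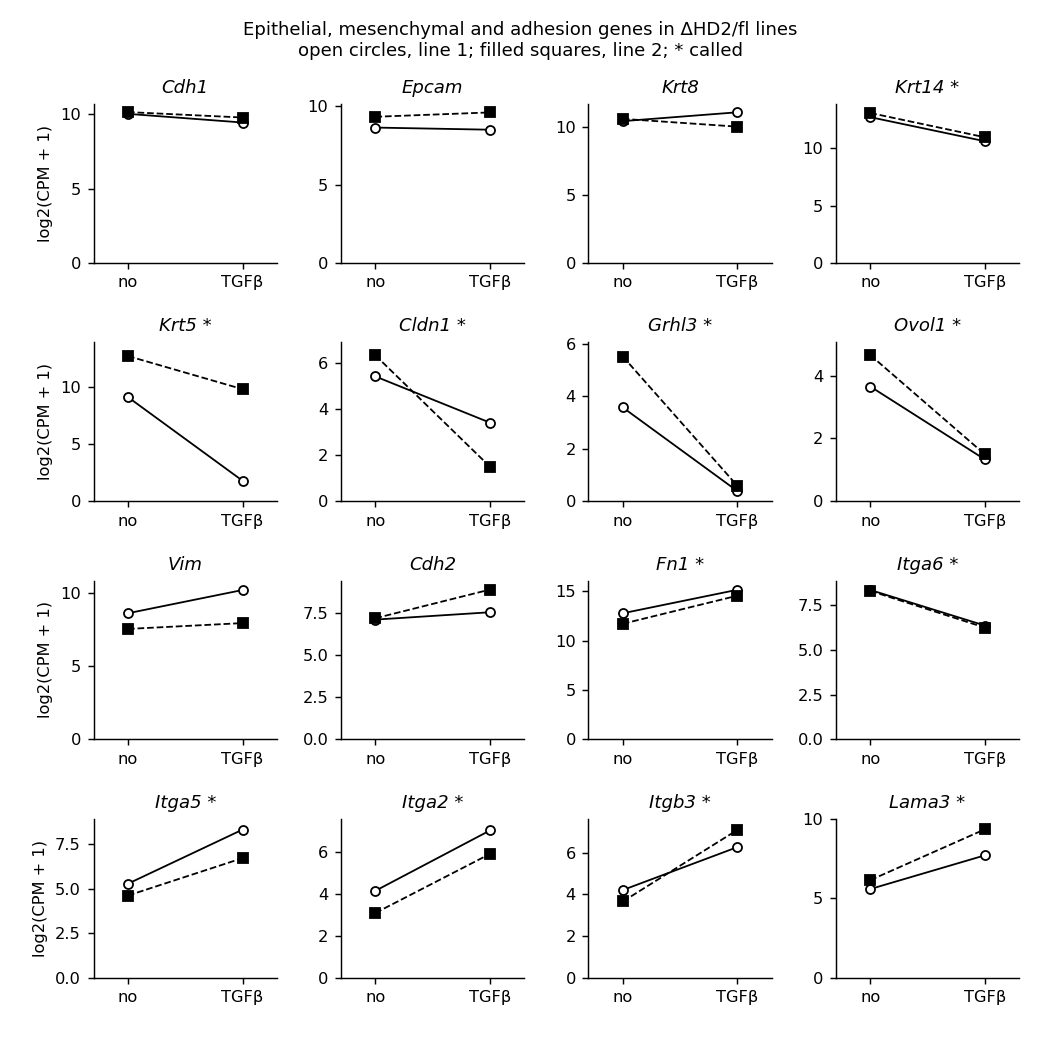
Level in log2(CPM + 1) (y axis, from 0) without cytokine and with TGFβ for 16 epithelial, mesenchymal and adhesion genes in line 1 (open circles) and line 2 (filled squares), where a star marks a called gene. Cdh1 and Epcam change by less than 1 in each line, Krt8 goes up in line 1 and down in line 2, Krt5, Cldn1, Grhl3, Ovol1 and Itga6 go down in both lines, and Fn1, Itga5, Itga2, Itgb3 and Lama3 go up in both.

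The integrin genes showed opposed changes among their members. Of 17 tested, 5 rose and 1 fell, with a median of 0.55. Itga6, the laminin receptor subunit of hemidesmosomes, fell from 325 and 314 to 81.2 and 74.9 CPM (-2.02 ± 0.41 (SE, adjusted p = 0.0103)), a drop of nearly the same size in the lines, while its partner Itgb4, named after its values were seen, went from 1247 and 1900.0 to 1561 and 2365 CPM (0.32, not called). Itga2, the collagen receptor subunit, rose from 16.6 and 7.44 to 128 and 58.3 CPM (2.84 ± 0.55 (SE, adjusted p = 0.00851)), Itgb3, the vitronectin receptor subunit, from 17.5 and 11.7 to 76.6 and 137 CPM (2.75 ± 0.55 (SE, adjusted p = 0.0104)), and Itga5 as given above. Itgb1, the common β subunit, also named later, went from 792 and 714 to 1459.6 and 1958 CPM, and Itga7, a laminin receptor subunit, from 1.21 and 0.370 to 5.18 and 1.67 CPM. The 6 calls were also made by edgeR and under median-of-ratios scaling, and none held without line 1 or without line 2.

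Among 34 collagens and collagen-modifying enzymes 5 rose and 2 fell, with a median of 0.85. Col5a2, a fibrillar collagen, rose from 158 and 55.2 to 655 and 768 CPM (2.91 ± 0.46 (SE, adjusted p = 0.00338)) and was the only one of the 7 called without line 1, while none was called without line 2. Col5a2 was not called by edgeR (adjusted p = 0.0523) or DESeq2 (adjusted p = 0.0661), and edgeR called 5 of the 7. Plod2, a lysyl hydroxylase, went from 55.9 and 33.1 to 133 and 206 CPM. Col6a2, a microfibrillar collagen, fell from 19.6 and 166 to 0.680 and 10.8 CPM, and P3h2, a prolyl hydroxylase, from 38.7 and 50.1 to 4.84 and 17.5 CPM. The fibroblast collagen Col1a1 remained low, at 14.8 and 2.48 CPM without cytokine and 54.2 and 12.3 CPM with TGFβ, and was not called.

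Lama3, a chain of the epithelial basement membrane, rose from 46.9 and 69.7 to 208 and 651 CPM (2.66 ± 0.49 (SE, adjusted p = 0.00688)), and was not called without line 1 or without line 2. In all, 2 of 11 basement membrane genes were called, both higher. The list's median was -0.31. Of 22 matricellular genes 4 rose and 0 fell (0 by edgeR too, with 2 higher), namely Ccn4, Fn1, Efemp2 (from 1.72 and 3.15 to 4.84 and 8.45 CPM) and the proteoglycan Vcan (from 87.0 and 77.6 to 154 and 203 CPM), and none of the 4 was called without either line. DESeq2 called 4 members higher and 1 lower. Of the 4 genes named above, Ccn4 alone was among these, with Fn1 at an adjusted p of 0.15. Tnc, tenascin C, named after its values were seen, went from 710.4 and 635 to 7794 and 9142 CPM, with no overlap between the groups, yet its change of 3.65 ± 1.66 (SE, adjusted p = 0.171) was not called.

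Among 23 matrix proteases and inhibitors 3 rose, among them Mmp9 and Adam12, a membrane protease (from 106 and 58.2 to 491 and 719 CPM), and 0 fell, and edgeR called 8 higher and 0 lower. Neither Mmp9 nor Adam12 was called without line 1 or without line 2.

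Most keratins of the basal layer fell, from starting levels that differed between the lines. Of 7 basal and wound keratins 4 were called lower and 0 higher (0 by edgeR too), all 7 were lower in both lines, and the median was -3.61. Krt14, the main basal type I keratin, fell from 6788 and 8746 to 1579 and 2008 CPM, with changes of -2.10 and -2.12. Its partner Krt5 fell from 559 and 6826 to 2.46 and 909 CPM, with changes of -7.34 and -2.91, so that line 1 kept little Krt5 and line 2 kept much. Krt17, a keratin of wounded and follicular epithelium, went from 17.97 and 1361 to 1.36 and 289.9 CPM. Krt5 was called without line 2 (adjusted p = 0.0339), and none of the 4 without line 1, and edgeR called 2 of the 4. Keratin genes have close copies, so reads between paralogs may be lost or shared.

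Among simple epithelial keratins, Krt8, the luminal type II keratin, stood at 1345 and 1509 CPM without cytokine and 2109.7 and 1016 CPM with TGFβ, up in line 1 and down in line 2 (0.04 ± 0.60 (SE, adjusted p = 0.977)). Of 5 tested, 1 fell, the weakly expressed Krt19 (from 6.29 and 0.740 to 1.74 and 0.0355 CPM), whose call was lost by edgeR, with median-of-ratios scaling and without line 1 and held without line 2 (adjusted p = 0.00977), and 0 rose (0 by edgeR too). Of 15 cornified envelope genes 0 were called by limma, 4 at an unadjusted p under 0.05 and 4 lower by edgeR, with 13 lower in both lines and a median of -0.69.

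Some secretory and protective genes fell. In the list of 12 secretory defence genes, 2 fell, Slpi and the iron-binding Lcn2 (from 16.5 and 17.3 to 0.491 and 0.746 CPM), 0 rose (0 by edgeR too), and the median was -1.06. Neither was called without line 1 or without line 2. Of 27 detoxification enzymes 5 fell and 1 rose, with a median of -0.65. Mgst1, a microsomal glutathione transferase, fell from 66.6 and 14.0 to 13.4 and 1.38 CPM, Gsta4, a cytosolic one, from 333 and 275 to 61.2 and 50.2 CPM, and Adh7, a retinol and alcohol dehydrogenase, from 52.8 and 25.8 to 8.62 and 4.44 CPM. The riser was Hmox1, heme oxygenase 1, named after its values were seen, from 113 and 45.2 to 334 and 144 CPM. Of these 6 only Aldh3a1 was called without line 1 (adjusted p = 0.0461) and none without line 2, and 4 of the 6 were called under median-of-ratios scaling.

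**Figure D4:**
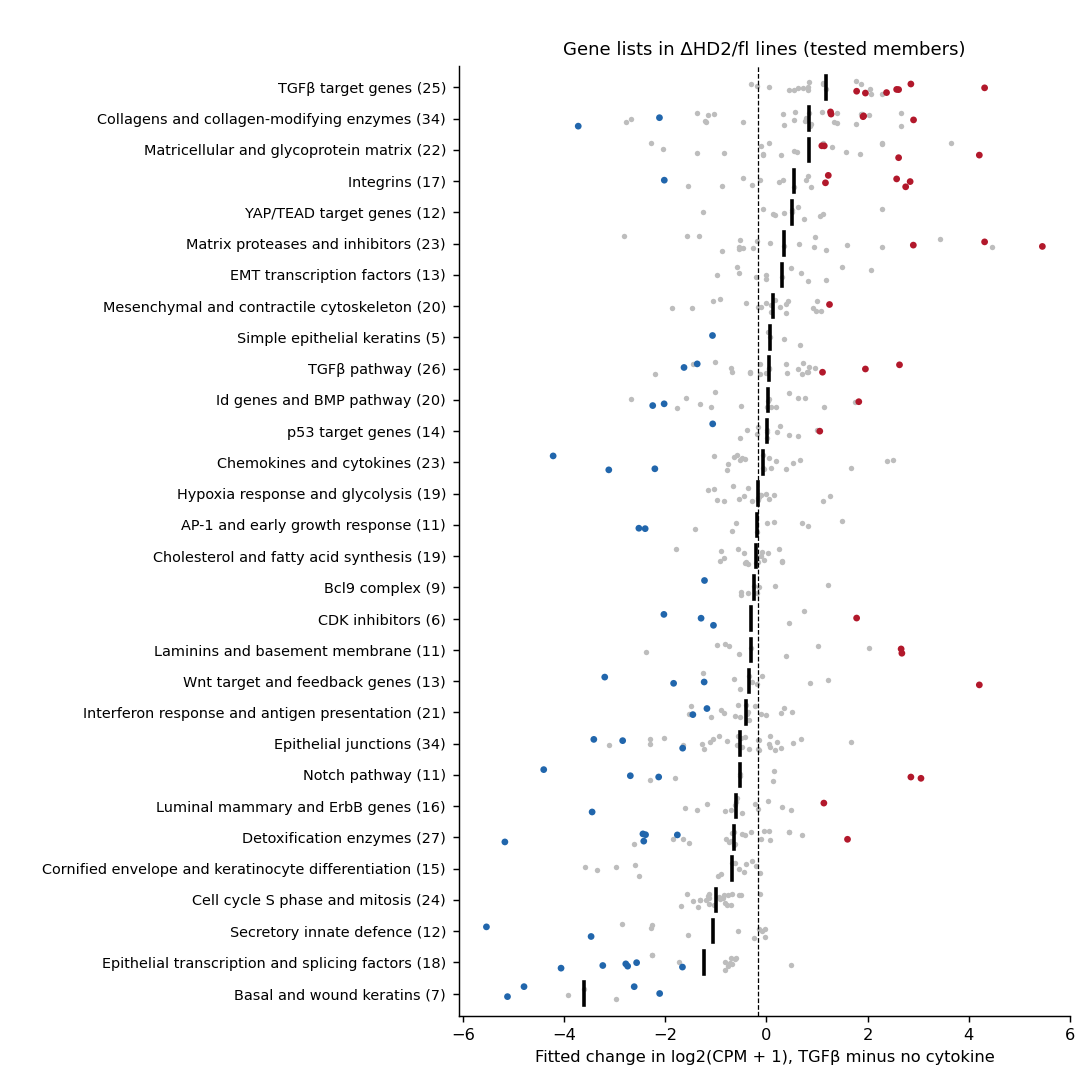
Fitted change in log2(CPM + 1) (x axis) of the tested members of 30 gene lists, with each list's number of tested genes in parentheses, where red points were called higher, blue called lower and grey not called. Black bars are list medians and the dashed line is the median of all tested genes (-0.17), with TGFβ target genes at the top (1.17) and basal keratins at the bottom (-3.61).

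No cell cycle gene of the list passed the test. Of 24 S phase and mitosis genes 0 were called by limma, edgeR or DESeq2, with 9 at an unadjusted p under 0.05, while 23 were lower in both lines and the median was -0.99. The median change was -0.45 in line 1 and -1.55 in line 2, and the change was more negative in line 2 for each of the 24. Mki67, the proliferation antigen, stood at 219 and 309.5 CPM without cytokine and 95.3 and 66.0 CPM with TGFβ (-1.70 ± 0.76 (SE, adjusted p = 0.167)). Of 6 inhibitors of cyclin-dependent kinases 1 rose (Cdkn2b) and 3 fell, Cdkn2c (from 52.3 and 42.5 to 17.1 and 6.68 CPM), Cdkn2d (from 23.4 and 31.9 to 12.4 and 8.95 CPM) and Cdkn1b (from 49.4 and 72.7 to 31.0 and 26.2 CPM), of which Cdkn1b lost its call with median-of-ratios scaling. Cdkn2d alone of the 4 was called without line 1 (adjusted p = 0.0316), and none without line 2. Myc stood at 258 and 211 CPM without cytokine and 207 and 107 CPM with TGFβ (-0.64 ± 0.25 (SE, adjusted p = 0.114)).

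The Notch genes divided. Of 11, 2 rose, Jag1 and the receptor Notch4 (from 1.55 and 2.15 to 5.59 and 83.4 CPM), and 3 fell, Hey1, the ligand Jag2 (from 83.5 and 178 to 6.62 and 46.4 CPM) and the receptor Notch1 (from 437 and 688 to 81.3 and 189 CPM). Notch4 rose mostly in line 2, with changes of 1.37 and 4.74. Without line 1, Jag1 and Notch4 were called, and without line 2, Jag1 and Jag2. The median was -0.53, and 4 of the 5 were called under median-of-ratios scaling.

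Some Wnt feedback genes fell. Of 13, 3 fell, Notum, a secreted Wnt deacylase (from 28.5 and 10.3 to 1.17 and 0.817 CPM, -3.20 ± 0.53 (SE, adjusted p = 0.00417)), Nkd2 (from 449.6 and 1110.0 to 73.7 and 524 CPM) and the transcription factor gene Tcf7 (from 31.4 and 27.1 to 13.5 and 10.4 CPM), and Ccn4 rose. Under median-of-ratios scaling 1 was called lower and Ccn4 higher, and none was called without either line. Axin2, the standard readout of β-catenin activity, was low, at 2.97 and 2.70 CPM without cytokine and 0.756 and 0.462 CPM with TGFβ, and missed the threshold (-1.26 ± 0.40 (SE, adjusted p = 0.0592)). By edgeR 2 of these 4 were called. Tcf7 was also the only one of 9 genes of the Bcl9 complex that was called, and edgeR did not call it. The median of the Wnt list was -0.35, with 7 of 13 lower in both lines.

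Immediate-early and inflammatory genes gave a few falls. Egr1 and Egr3, growth factor-induced transcription factors, fell from 99.9 and 145 to 27.4 and 17.6 CPM and from 20.1 and 19.4 to 5.78 and 0.923 CPM, the 2 called of 11 AP-1 and early growth response genes, with Egr3 also called without line 1 (adjusted p = 0.0277) and neither without line 2. Of 23 chemokine and cytokine genes 3 fell, the neutrophil attractants Cxcl5 (from 56.8 and 51.6 to 1.93 and 1.99 CPM) and Cxcl1 (from 30.8 and 15.8 to 6.35 and 2.41 CPM) and the interleukin 1 antagonist Il1rn (from 13.7 and 29.2 to 1.63 and 1.24 CPM). Of these, Il1rn was called without line 1 (adjusted p = 0.0122), none without line 2, and Cxcl1 lost its call with median-of-ratios scaling. Of 21 interferon response genes 2 fell, among them Irf7 (from 3.10 and 5.11 to 0.869 and 0.781 CPM), and neither passed both thresholds under median-of-ratios scaling.

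Of 16 luminal and ErbB genes the receptor gene Kit fell (from 2.50 and 57.3 to 0 and 0.710 CPM) and the ligand gene Hbegf rose (from 75.1 and 50.4 to 164 and 114 CPM). Kit fell mostly in line 2, its call held without line 1 (adjusted p = 0.0064), and neither was called without line 2. Of 14 p53 targets Mdm2 rose (from 376 and 162 to 775 and 341 CPM) and Sesn1 fell (from 30.4 and 19.4 to 12.4 and 9.94 CPM), neither was called without line 1 or without line 2, and Sesn1 lost its call with median-of-ratios scaling. The lists of 12 YAP/TEAD targets, 19 hypoxia and 19 cholesterol genes had 0 calls by limma, with 4 members of each at an unadjusted p under 0.05, and edgeR called 1, 0 and 0. The leukocyte marker Csf1r, a cytokine receptor, rose from 2.84 and 0.963 to 8.35 and 20.8 CPM, with Ptprc at 0 and Cd68 at 2.93 and 2.11 CPM without cytokine and 3.40 and 2.06 CPM with TGFβ, and was not called without either line or by edgeR.

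A small number of genes went opposite ways in the lines. Igfbp5, a secreted growth factor binding protein, went from 2304 and 798 to 157 and 2796 CPM, changes of -3.87 and 1.81. Fxyd6, a regulator of the sodium pump, went from 92.9 and 31.8 to 22.7 and 112 CPM, Sema3c, a secreted semaphorin, from 142 and 100.3 to 43.4 and 276 CPM, and Ntn1, the netrin ligand, from 148 and 3.00 to 36.8 and 7.99 CPM. Tenm4, a teneurin, was the 1 gene up in line 1 and down in line 2, from 24.7 and 24.2 to 62.1 and 6.75 CPM. With 1 library per line and treatment none of these differences between the lines has a test.

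The TGFβ response of ΔHD2/fl lines was then compared with that of 3 ΔHD2/- lines, in which the floxed allele had been removed with an adenovirus that expresses Cre and cells were sorted for GFP, and of 2 ΔHD1/fl lines, in which 1 allele lacks the Pygopus-binding HD1 domain beside a floxed wild-type allele. Each genotype is held by its own lines, and the ΔHD2/- lines also went through the Cre virus and sorting. An effect of genotype on the response cannot be told apart from these. The difference of responses was called for 13 genes against ΔHD2/- (0.098%), of which 1 was higher (0.00754%) and 12 lower (0.0904%). It was called for 23 genes against ΔHD1/fl (0.173%), with 4 higher (0.0301%) and 19 lower (0.143%). By edgeR, 0 and 1 were called, with 961 and 677 at an unadjusted p under 0.05. Without ΔHD2/- line 1 the first count was 244, without line 2 or line 3 it was 5, and without ΔHD1/fl line 1 or 2 the second was 66 or 70. Lines 2 and 3 of ΔHD2/- are close to each other in expression (correlation across tested genes 0.993 to 0.997 within a treatment), so they may not count as separate replicates. ΔHD2/- lines were made from cells with a floxed allele, and which lines were their parents is not given in the sources used here, so lines of the compared genotypes may share parents.

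Several of the called differences concerned genes that were at or near 0 in the other genotypes. Sostdc1, which fell in ΔHD2/fl lines, stood at 0.349, 0 and 0 CPM without and 0, 0 and 0 CPM with TGFβ in the 3 ΔHD2/- lines and at 0 and 0 CPM without and 0.0420 and 0 CPM with TGFβ in the ΔHD1/fl lines. The response differed by -4.30 ± 0.41 (SE, adjusted p = 0.00114) from ΔHD2/- and by -4.47 ± 0.45 (SE, adjusted p = 0.00185) from ΔHD1/fl. Krt75, a follicular keratin, stood at 5.73 and 8.51 CPM without cytokine and 0 and 0.0355 CPM with TGFβ in ΔHD2/fl and at 0.0437, 0.0450 and 0 CPM without and 0, 0 and 0 CPM with TGFβ in ΔHD2/-. Ptn, the growth factor pleiotrophin, went from 5.26 and 27.7 to 0.0378 and 1.67 CPM, against 0.655, 1.85 and 2.09 CPM without and 0, 0.739 and 0.917 CPM with TGFβ, a difference of -2.30 ± 0.24 (SE, adjusted p = 0.00114). Ptn thus fell in all 3 ΔHD2/- lines too, from low levels that limit the fall on this scale. With a pseudocount of 0.1 its difference was not called by limma (adjusted p = 0.428). Tmem45a went from 3.66 and 7.59 to 0.0378 and 0.426 CPM, against 0.480, 0 and 0 CPM without and 0.0378, 0 and 0 CPM with TGFβ. Car12, a carbonic anhydrase, went from 34.4 and 31.9 to 1.44 and 2.91 CPM, against 0.183 and 0.559 CPM without and 0 and 0.568 CPM with TGFβ in ΔHD1/fl, and Slc1a1, a glutamate transporter, from 6.25 and 10.3 to 0.0378 and 0.142 CPM against 0.0457 and 0.0373 CPM without and 0.0420 and 0 CPM with TGFβ. In Sostdc1, Krt75, Tmem45a, Car12 and Slc1a1 the other genotype was at or near 0 before treatment, a level from which no fall can be measured, so the difference restates the fall in ΔHD2/fl. Of the 27 libraries only 4 reached 1 CPM of Sostdc1 and only 4 of Tmem45a, all ΔHD2/fl. These genes entered the test through that group. Krt75 reached 1 CPM in 4 libraries, of which 3 were ΔHD2/fl. The adjusted p-values of these differences are no support.

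Cdh15, Scara3 and Fbxo32 gave other patterns. Cdh15, M-cadherin (chromosome 8, 122848374 to 122867397), fell from 9.53 and 9.03 to 0.0378 and 0.0710 CPM in ΔHD2/fl and was higher with TGFβ in all 5 lines of the genotypes compared, at 0.393, 0 and 0 CPM without and 1.63, 1.11 and 1.38 CPM with TGFβ in ΔHD2/- and 0.229 and 0.970 CPM without and 0.925 and 3.76 CPM with TGFβ in ΔHD1/fl, with differences of -4.37 ± 0.46 (SE, adjusted p = 0.00114) and -4.25 ± 0.50 (SE, adjusted p = 0.0042). Scara3, a scavenger receptor-like protein (chromosome 14, 65919394 to 65953978), went from 0.302 and 0.0740 to 5.86 and 6.68 CPM, against 0, 0 and 0 CPM without and 0.416, 0 and 0 CPM with TGFβ in ΔHD2/- and 0 and 0 CPM without and 0.0420 and 0.0355 CPM with TGFβ in ΔHD1/fl. Of the 27 libraries only the 2 ΔHD2/fl libraries with TGFβ reached 1 CPM of Scara3, so the gene entered the test through the values that make it differ, and its fitted rise and differences are no support. DESeq2 did not call the rise (adjusted p = 0.18), and with a pseudocount of 0.1 neither difference was called. Fbxo32, a ubiquitin ligase subunit of muscle wasting, rose in ΔHD1/fl (29.7 and 12.5 CPM without and 390.4 and 159 CPM with TGFβ) but not in ΔHD2/fl, where it stood at 107 and 81.7 CPM without cytokine and 71.4 and 88.3 CPM with TGFβ, a difference of -3.86 ± 0.48 (SE, adjusted p = 0.0062).

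**Figure D5:**
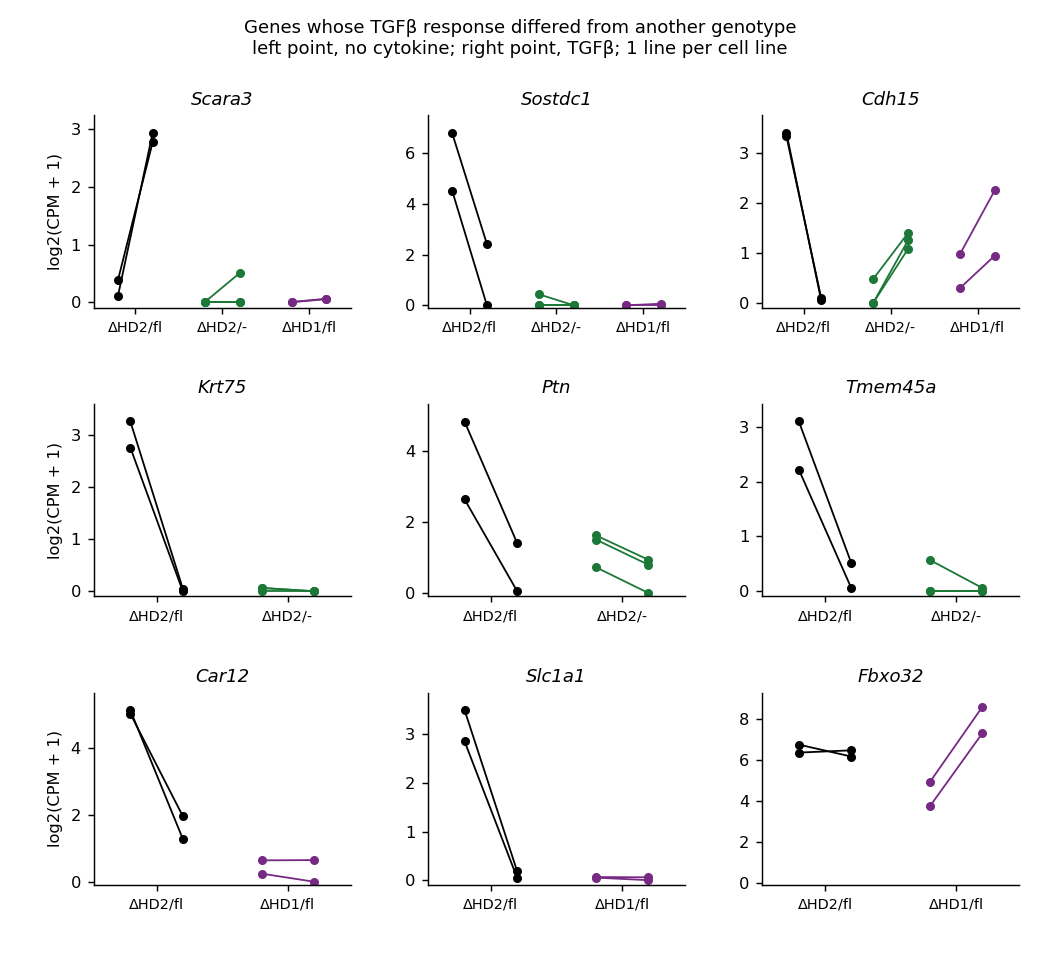
Level in log2(CPM + 1) (y axis) without cytokine (left point) and with TGFβ (right point) of 9 genes whose response differed in ΔHD2/fl lines (black, 2 lines) from ΔHD2/- (green, 3 lines) or ΔHD1/fl (purple, 2 lines), with 1 joined pair of points per cell line and only genotypes with a called difference drawn. In Sostdc1, Krt75, Tmem45a, Car12 and Slc1a1 the other genotype lies near 0 in both conditions, whereas Cdh15 moves down in ΔHD2/fl and up elsewhere.

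For 23 of the 24 genes with the largest changes no difference from another genotype was called, which does not show that the responses were alike. Each of the 12 top risers also had a positive fitted change in ΔHD2/- and in ΔHD1/fl, by at least 1 in 11 and 10 of them, and of the 12 top fallers 12 and 11 had a negative one. Sostdc1 was the 1 gene of the 24 whose difference was called, against both genotypes. As given above, that difference restates its fall in ΔHD2/fl. With a pseudocount of 0.1 neither difference was called by limma (adjusted p = 0.116 and 0.0754). The 24 were chosen for their change in ΔHD2/fl, so that larger changes there than elsewhere were set by the choice. Clu had a fitted change of 5.36 in ΔHD2/- and 3.69 in ΔHD1/fl, beside 5.67 in ΔHD2/fl.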

How the data were processed

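Per the labels, single reads of stranded mRNA libraries were sequenced on a NovaSeq, aligned to mm10 with STAR, and, per the study's methods, unique hits that start in RefSeq exons were counted with QuasR; the strand setting is not given in the sources used here. The authors deposited CPM values, assigned reads scaled to a total of 1000000 per library, for 24454 Entrez identifiers, of which 24374 matched a symbol. Values were whole multiples of 1 read (100.0% within 0.01 reads). The 13270 genes that reached 1 CPM in 2 or more of the 27 libraries entered limma 3.58.1 as log2(CPM + 1) (R 4.3.3, trend and robust settings), cell line as a block, 1 Wnt3a and 1 TGFβ effect per genotype, and 10 residual degrees of freedom; adjusted p-values are Benjamini-Hochberg over all tested genes. Changes on this scale understate those of low genes. Alternatives used edgeR 4.0.16, DESeq2 1.42.0 on recovered reads, median-of-ratios scaling, other pseudocounts, filters and thresholds, and left-out lines; the limma and edgeR tests of the ΔHD2/fl response were tried on simulated data, where both recovered most changed genes, limma's calls held more unchanged genes than edgeR's, at a share above the adjusted p threshold. The tests between genotypes and DESeq2 were not tried this way.

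The pairing follows the design, since libraries of a number are the same cell line; untreated and TGFβ libraries of a ΔHD2/fl line deviated together from their group means (r = 0.705). Named genes were Bcl9 and Bcl9l, the 12 that rose and 12 that fell most among called genes that moved by at least 1 in both lines and reached a mean of 10 CPM (unnamed gene models left out), up to 4 called members of each of 35 gene lists with preset members such as Cdh1, up to 5 called differences each way between genotypes, and genes that moved in opposite directions and reached 10 CPM. Some genes that this rule names are not reported here. The members and lists were chosen with earlier results of these data known. Tcf7, Ltbp2, Ovol1, Tjp3, Plod2, Cdkn2b and Zeb2 overlap another tested gene, whose reads may be counted with theirs. Promoter sequences and coordinates are from RefSeq, GRCm38.p6, the assembly called mm10.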

Additional observations from a re-analysis of the deposited data

Results flagged for a closer look

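Each result here is a TGFβ response in ΔHD2/fl lines that differed from that of another genotype by the test of the difference (limma with cell line as a block, log2 scale, ΔHD2/fl minus the other). Against ΔHD2/- the response was higher by 2.45 for Scara3. It was lower for Cdh15 (-4.37), Sostdc1 (-4.30), Krt75 (-2.93), Ptn (-2.30) and Tmem45a (-2.21). Sostdc1, Krt75 and Tmem45a were at or near 0 in ΔHD2/- before treatment, a level from which no fall can be measured, so their differences restate the change in ΔHD2/fl. Sostdc1 and Tmem45a reached 1 CPM in ΔHD2/fl libraries alone and entered the test through them. Ptn, at 0.655 to 2.09 CPM in ΔHD2/- before treatment, fell there too. Scara3 reached 1 CPM in the 2 ΔHD2/fl libraries with TGFβ alone and so entered the test through the values that make it differ. Of these 6, Cdh15 kept its call with a pseudocount of 0.1.

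Against ΔHD1/fl the response was higher for Scara3 (2.56), for Chst1, a carbohydrate sulfotransferase (3.03), for 1700016K19Rik (1.77) and for Eomes, a T-box factor (1.64). It was lower for Sostdc1 (-4.47), Cdh15 (-4.25), Fbxo32 (-3.86), Car12 (-3.35) and Slc1a1 (-3.03). These limits hold here too for Scara3, Sostdc1, Car12 and Slc1a1. 1700016K19Rik reached 1 CPM in 3 libraries, all ΔHD2/fl, and stood at 0.560 and 0.555 CPM without cytokine and 2.68 and 6.61 CPM with TGFβ in ΔHD2/fl and at 0.0457 and 0 CPM without and 0.0420 and 0 CPM with TGFβ in ΔHD1/fl. Chst1 stood at 3.88 and 0 CPM without cytokine and 0.643 and 0 CPM with TGFβ in ΔHD2/fl and at 21.6 and 82.4 CPM without and 0.673 and 4.72 CPM with TGFβ in ΔHD1/fl, so the difference lies in the fall in ΔHD1/fl, and it lost its call with median-of-ratios scaling (adjusted p = 0.0518). Eomes stood at 10.2 and 0.370 CPM without cytokine and 16.0 and 0.497 CPM with TGFβ in ΔHD2/fl and at 7.41 and 1.42 CPM without and 1.77 and 0.249 CPM with TGFβ in ΔHD1/fl. With a pseudocount of 0.1, Fbxo32 alone of the 9 kept its call.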

How the results depend on the processing

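The 695 calls of the TGFβ response became 901 with DESeq2, 603 with edgeR, 650 with median-of-ratios scaling, 609 without the filter, 749 with a pseudocount of 0.1, 877 with the 4 libraries alone and 489 without ΔHD2/- line 3. Without the replicate block they were 38, without 1 of the ΔHD2/fl lines 78 to 162, with no limit on the fold change 1414, and 2453 at a 1.5-fold change with an unadjusted p up to 0.05. The 867 genes that moved by at least 1 the same way in both lines became 1382 with a pseudocount of 0.1 and 2168 at 1.5-fold. The 13 differences from ΔHD2/- became 23 with DESeq2 (1 of the 13 among them), 0 with edgeR (961 at an unadjusted p under 0.05), 20 with median-of-ratios scaling and 20 without the filter, 4 without the replicate block, 2 with the compared lines alone, 1 with a pseudocount of 0.1, 5 to 244 with a line left out, and 944 at the unadjusted threshold. The 23 differences from ΔHD1/fl became 9 with DESeq2 (4 of the 23 among them), 1 with edgeR, 2 without the replicate block, 0 with the compared lines alone by limma (585 at an unadjusted p under 0.05), 1 with a pseudocount of 0.1, 9 to 70 with a line left out, and 660 at the unadjusted threshold. Of 103 named genes, of which 82 were called, 77 lost their call without the block, 65 without line 1, 74 without line 2, 23 with edgeR, 14 with DESeq2 and 13 with median-of-ratios scaling. Signs turned in 4 of these 103, none of them called. The 103 leave out genes named only for a difference between genotypes or for opposite changes in the lines. Genes with opposite changes turn sign by construction when a line is left out. Of them, Fxyd6 and Sema3c also turned with median-of-ratios scaling (0.0922 and 0.0773). Fbxo32 went from -0.24 to 0.11 without line 1. Among the 103 the changes of sign were as follows. Tgfb1 went to 0.0604 with DESeq2, 0.0471 with edgeR and 0.0577 with median-of-ratios scaling. With a line left out, Tgfb1 ranged from -0.41 to 0.17, Epcam from -0.14 to 0.28, Tgfbr1 from -0.24 to 0.35 and Krt8 from -0.57 to 0.65. The cause of these changes was not tested, and a fit without a line has fewer samples by construction. With 2 lines and 1 library per line and treatment, a difference between the lines has no test, and levels under 0.129 CPM were not measurable.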
